A study of Homo sapiens with 38 samples.

Results

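The genes described are 9 that mark or control the epithelial and mesenchymal states: the cadherins CDH1, CDH2 and CDH3, the epithelial genes EPCAM, ESRP1 and ESRP2, and the mesenchymal genes VIM, ZEB1 and SNAI2. They were taken by gene symbol from tables of 60252 genes, and all 9 were found. In the files, CDH1 is ENSG00000039068.18_2, EPCAM is ENSG00000119888.10_1 and ESRP1 is ENSG00000104413.15_2, on chromosomes 16, 2 and 8. The tables cover 36 RNA-seq libraries of a study that deleted the 7p15.2 prostate cancer risk region and forced the expression of HOXA13, a homeobox factor encoded near it. RWPE-1, an immortalized, non-tumorigenic prostate epithelial line, gave 7 libraries with the risk region deleted and 5 wild-type control libraries, both labelled as genome editing. For overexpression, RWPE-1 cells received a HOXA13 vector (3 libraries) or the matching eGFP plasmid (3 libraries), and the brightest 10% by eGFP were sorted at 48 hours from 3 flasks each. C4-2B, a tetraploid prostate cancer line derived from LNCaP, gave 9 libraries from 3 deletion lines, m, le5 and ld9, and 9 from 3 wild-type control lines that were labelled as genome editing too. The deletion lines were full-deletion clones that came from 2 colonies after a second editing round, so 2 of them may share a parent, and the labels do not say which lines these are. Whether the edited RWPE-1 libraries are separate clones is not stated, so p-values measure only the spread between libraries, which may be technical.

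Cadherins are calcium-dependent adhesion molecules that join neighbouring cells. E-cadherin, encoded by CDH1, holds epithelial sheets together at adherens junctions. N-cadherin, encoded by CDH2, is typical of mesenchymal and neural cells, and P-cadherin, encoded by CDH3, is typical of basal epithelial cells. In epithelial-mesenchymal transition, zinc-finger repressors such as ZEB1 and SNAI2 (Slug) bind E-box motifs and repress CDH1 and other epithelial genes, while VIM (vimentin), an intermediate filament of mesenchymal cells, is made. EPCAM is a surface protein of simple epithelia, and ESRP1 and ESRP2 are splicing factors that keep epithelial isoforms of genes such as FGFR2 and CD44. SNAI2 is also known as a factor of normal basal epithelium.

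The marker genes of the lines set the ground for the values. The summed level of 8 basal prostate markers (KRT5, KRT14, KRT15, KRT17, TP63, ITGB4, ITGA6 and LAMB3) lay between 11291 and 20485 TPM in RWPE-1 libraries. It lay between 13.2 and 22.4 TPM in C4-2B libraries, where KRT5, KRT15, KRT17 and LAMB3 stayed under 0.5 TPM. TPM is a transcript abundance corrected for transcript length and scaled to one total per library. HOXA13 itself was at 8.03 ± 1.63 TPM in RWPE-1 deletion libraries and 1.16 ± 0.709 TPM in their controls (SD, n = 7 and 5). It stood at 748 ± 83.5 TPM in HOXA13 libraries and 2.67 ± 1.01 TPM in eGFP libraries (SD, n = 3 each). In C4-2B it was at 0.964 ± 0.0246 TPM over deletion lines and 1.28 ± 0.427 TPM over control lines (SD, n = 3 each). Of the libraries, number 1 of C4-2B control line 3 stood apart, with 28.4% of its TPM from mitochondrial genes, against 10.8% to 16.6% in the other libraries.

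RefSeq promoter windows (GRCh38.p14, 250 bases before to 50 after a start site) were held for 3 of the 9 genes, CDH2, VIM and ZEB1. All 3 were far lower in C4-2B than in RWPE-1 libraries. For CDH2 the table holds 2 windows and for ZEB1 7, of which 1 each is shown, for ZEB1 the window with the most matches. Capitals mark CACCTG or its reverse complement CAGGTG, the E-box form known to be bound by ZEB and SNAI factors, searched on both strands.
VIM promoter, chr10:17227991-17228290, plus strand: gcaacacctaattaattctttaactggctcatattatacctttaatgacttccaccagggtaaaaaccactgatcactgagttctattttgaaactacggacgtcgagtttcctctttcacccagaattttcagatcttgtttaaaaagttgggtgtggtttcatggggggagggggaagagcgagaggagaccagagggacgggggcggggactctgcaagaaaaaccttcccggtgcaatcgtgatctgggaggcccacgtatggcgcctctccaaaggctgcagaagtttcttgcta
CDH2 promoter, chr18:28177081-28177380, minus strand: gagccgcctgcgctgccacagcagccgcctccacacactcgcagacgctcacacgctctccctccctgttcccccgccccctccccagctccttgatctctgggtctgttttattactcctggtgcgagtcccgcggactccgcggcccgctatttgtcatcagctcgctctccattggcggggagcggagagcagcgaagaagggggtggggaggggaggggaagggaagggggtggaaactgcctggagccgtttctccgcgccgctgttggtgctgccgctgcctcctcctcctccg
ZEB1 promoter, chr10:31318966-31319265, plus strand: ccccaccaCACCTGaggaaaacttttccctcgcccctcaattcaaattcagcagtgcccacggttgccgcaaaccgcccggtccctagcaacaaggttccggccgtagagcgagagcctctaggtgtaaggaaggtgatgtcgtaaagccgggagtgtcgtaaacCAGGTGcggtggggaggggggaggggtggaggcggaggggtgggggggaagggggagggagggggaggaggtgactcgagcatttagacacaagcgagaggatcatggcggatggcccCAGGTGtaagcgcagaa
The ZEB1 window shown holds 3 of these E-boxes, at bases 9, 166 and 284, and the VIM and CDH2 windows hold none. Of the 7 ZEB1 windows only 2 hold any, so nothing particular to ZEB1 is read from the window shown. Of 35116 RefSeq promoter windows of the same length, 20.6% hold at least 1. A match here is a run of letters and was not tested as a binding site.

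CDH1, the epithelial cadherin, differed in level between the RWPE-1 experiments. In RWPE-1 deletion libraries it was at 0.72, 1.12 and 3.17 TPM (lowest, median and highest of 7), and in control libraries at 7.01, 10.67, 16.32, 4.22 and 2.71 TPM. In HOXA13 libraries it was at 35.51, 17.45 and 22.65 TPM, and in eGFP libraries at 20.52, 24.61 and 21.12 TPM. The deletion libraries were the lowest of the RWPE-1 groups, the controls stood between, and all 6 transfected libraries lay above the highest control. Deletion and control libraries overlapped, because deletion library 2 (3.17 TPM) lay above control library 5 (2.71 TPM). HOXA13 and eGFP libraries overlapped as well, with HOXA13 libraries at both ends. In C4-2B, CDH1 ran from 151 to 180 TPM in deletion libraries (median 171) and from 73.2 to 276 TPM in control libraries (median 218).

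CDH2 was measured in every RWPE-1 library. It was at 3.36, 4.33 and 9.09 TPM in deletion libraries (lowest, median and highest of 7) and at 6.08, 7.29, 29.32, 4.73 and 1.33 TPM in control libraries. It was at 10.46, 14.3 and 22.07 TPM in HOXA13 libraries and at 16.75, 20.64 and 18.75 TPM in eGFP libraries. Control library 3 was higher than any other RWPE-1 library, and control library 5 was lower than any. All 6 transfected libraries lay above the highest deletion library. It was listed at 0 in 17 of 18 C4-2B libraries, and library 1 of deletion line ld9 had 0.03 TPM.

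CDH3 was the most abundant of the 3 cadherins in all 18 RWPE-1 libraries. It was at 53.38, 69.07 and 92.85 TPM in deletion libraries (lowest, median and highest of 7) and at 122.01, 143.38, 67.88, 48.04 and 42.02 TPM in control libraries. Control libraries lay on both sides of the deletion range, and the transfected libraries were tighter, at 134.93, 149.25 and 144.78 TPM with HOXA13 and 156.44, 154.6 and 157.63 TPM with eGFP. In C4-2B, CDH3 was at 2.59 to 9.47 TPM in deletion libraries and 1.18 to 6.07 TPM in control libraries.

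**Figure D1:**
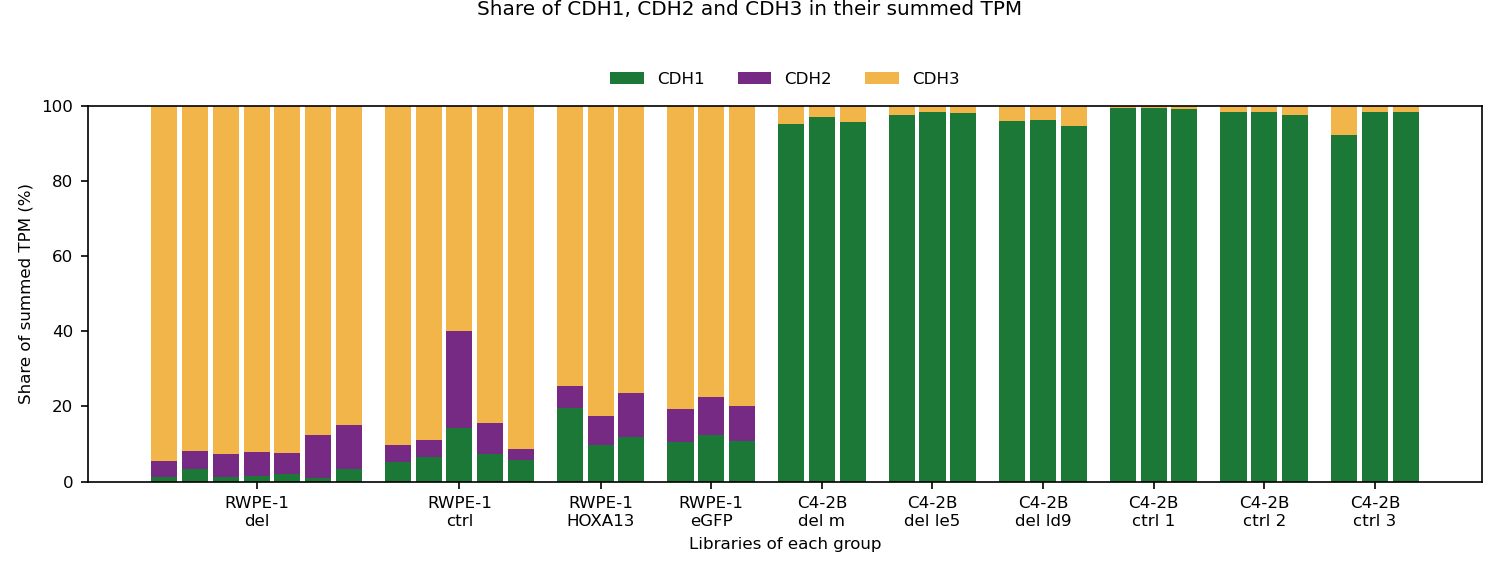
Each bar is a library, and its colours give the share (%, y axis) of CDH1, CDH2 and CDH3 in the sum of their TPM. CDH3 fills 59.8% to 94.6% of every RWPE-1 bar, and CDH1 fills 92.3% to 99.5% of every C4-2B bar.

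Taken as shares of the summed TPM of the 3 cadherins, RWPE-1 libraries were mostly CDH3 and C4-2B libraries almost wholly CDH1. CDH1 took 0.913% to 3.47% in RWPE-1 deletion libraries and 5.19% to 14.4% in control libraries, without overlap. In TPM the groups did overlap for CDH1, and control library 5, the lowest control for CDH1, was also lowest for CDH3 (42.02 TPM). How often such shares part without overlap was not counted. E-cadherin was the smaller part of the cadherin RNA in RWPE-1. It took 9.64% to 19.6% in HOXA13 libraries and 10.6% to 12.3% in eGFP libraries. In C4-2B it took 94.7% to 98.4% in deletion libraries and 92.3% to 99.5% in control libraries. The ratio of CDH2 to CDH1 in TPM, often read as a cadherin switch, was 1.37 to 12.6 in RWPE-1 deletion libraries (median 3.43) and 0.491 to 1.80 in control libraries (median 0.867). It was 0.295 to 0.974 in HOXA13 libraries and 0.816 to 0.888 in eGFP libraries. CDH2 was not higher with the deletion, averaging 5.58 TPM in deletion libraries and 9.75 TPM in controls. In deletion libraries the ratio divides by CDH1 values of 0.72 to 3.17 TPM, so no switch to CDH2 is read from it.

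EPCAM and ESRP1 were near 0 in every library of the RWPE-1 editing experiment and present in every transfected one. EPCAM was at 0 to 0.13 TPM in deletion libraries (listed at 0 in 4 of 7) and at 0.05, 0.08, 0.09, 0.36 and 0.15 TPM in control libraries. It was at 13.99, 10.95 and 9.54 TPM in HOXA13 libraries and at 19.52, 14.9 and 16.95 TPM in eGFP libraries. C4-2B cells had 86.17 to 110 TPM in deletion libraries and 66.09 to 113 TPM in control libraries. All 3 libraries of control line 3 (68.63, 66.09 and 68.54 TPM) lay below every other C4-2B library.

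ESRP1 followed the same split. It was at 0.06 to 0.5 TPM in deletion libraries and 0 to 0.11 TPM in control libraries. It was at 6.51, 7.93 and 8.85 TPM in HOXA13 libraries and 7.74, 7.59 and 9.56 TPM in eGFP libraries. ESRP1 in C4-2B was at 35.97 to 54.9 TPM in deletion libraries and 28.03 to 51.4 TPM in control libraries. Its paralog ESRP2 had no such split: it was at 7.48 to 12.7 TPM over all 18 RWPE-1 libraries, where the 4 groups overlapped, and at 20.99 to 34.94 TPM over the 18 C4-2B libraries. ESRP2 thus exceeded ESRP1 by 21.1 to 421 times in the editing experiment, leaving out the control library with ESRP1 at 0. These ratios divide by ESRP1 values at or under 0.5 TPM, whose precision is not known. The ratio was 0.943 to 1.69 in transfected libraries and 0.421 to 1.01 in C4-2B libraries.

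Of the mesenchymal genes, VIM was among the steadiest. It was at 1545 to 1859 TPM in deletion libraries, 1713 to 1913 TPM in control libraries, 1554 to 1803 TPM in HOXA13 libraries and 1694 to 1879 TPM in eGFP libraries. All 4 RWPE-1 groups overlapped. VIM in C4-2B was at 8.07 to 16.12 TPM in deletion libraries and 8.03 to 14.35 TPM in control libraries.

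ZEB1 was at 11.21, 12.98 and 13.18 TPM in deletion libraries (lowest, median and highest of 7) and at 10.1, 13.33, 7.9, 9.7 and 12.68 TPM in control libraries. It was at 5.33, 9.42 and 9.07 TPM in HOXA13 libraries and at 6.43, 6.49 and 7.16 TPM in eGFP libraries. Every deletion library lay above every transfected library, and the controls overlapped with both the deletion and the HOXA13 libraries. ZEB1 in C4-2B was at 0.01 to 0.35 TPM in deletion libraries and 0 to 0.23 TPM in control libraries.

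SNAI2 was at 68.69, 81.3 and 102 TPM in deletion libraries (lowest, median and highest of 7) and at 99.04, 94.94, 81.99, 63.97 and 81.42 TPM in control libraries. It was at 99.6, 115 and 126 TPM in HOXA13 libraries and at 129, 126 and 130 TPM in eGFP libraries. Deletion and control libraries overlapped throughout, and the eGFP libraries lay above both. SNAI2 in C4-2B was at 0.79 to 2.4 TPM in deletion libraries and 1.26 to 4.38 TPM in control libraries.

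**Figure D2:**
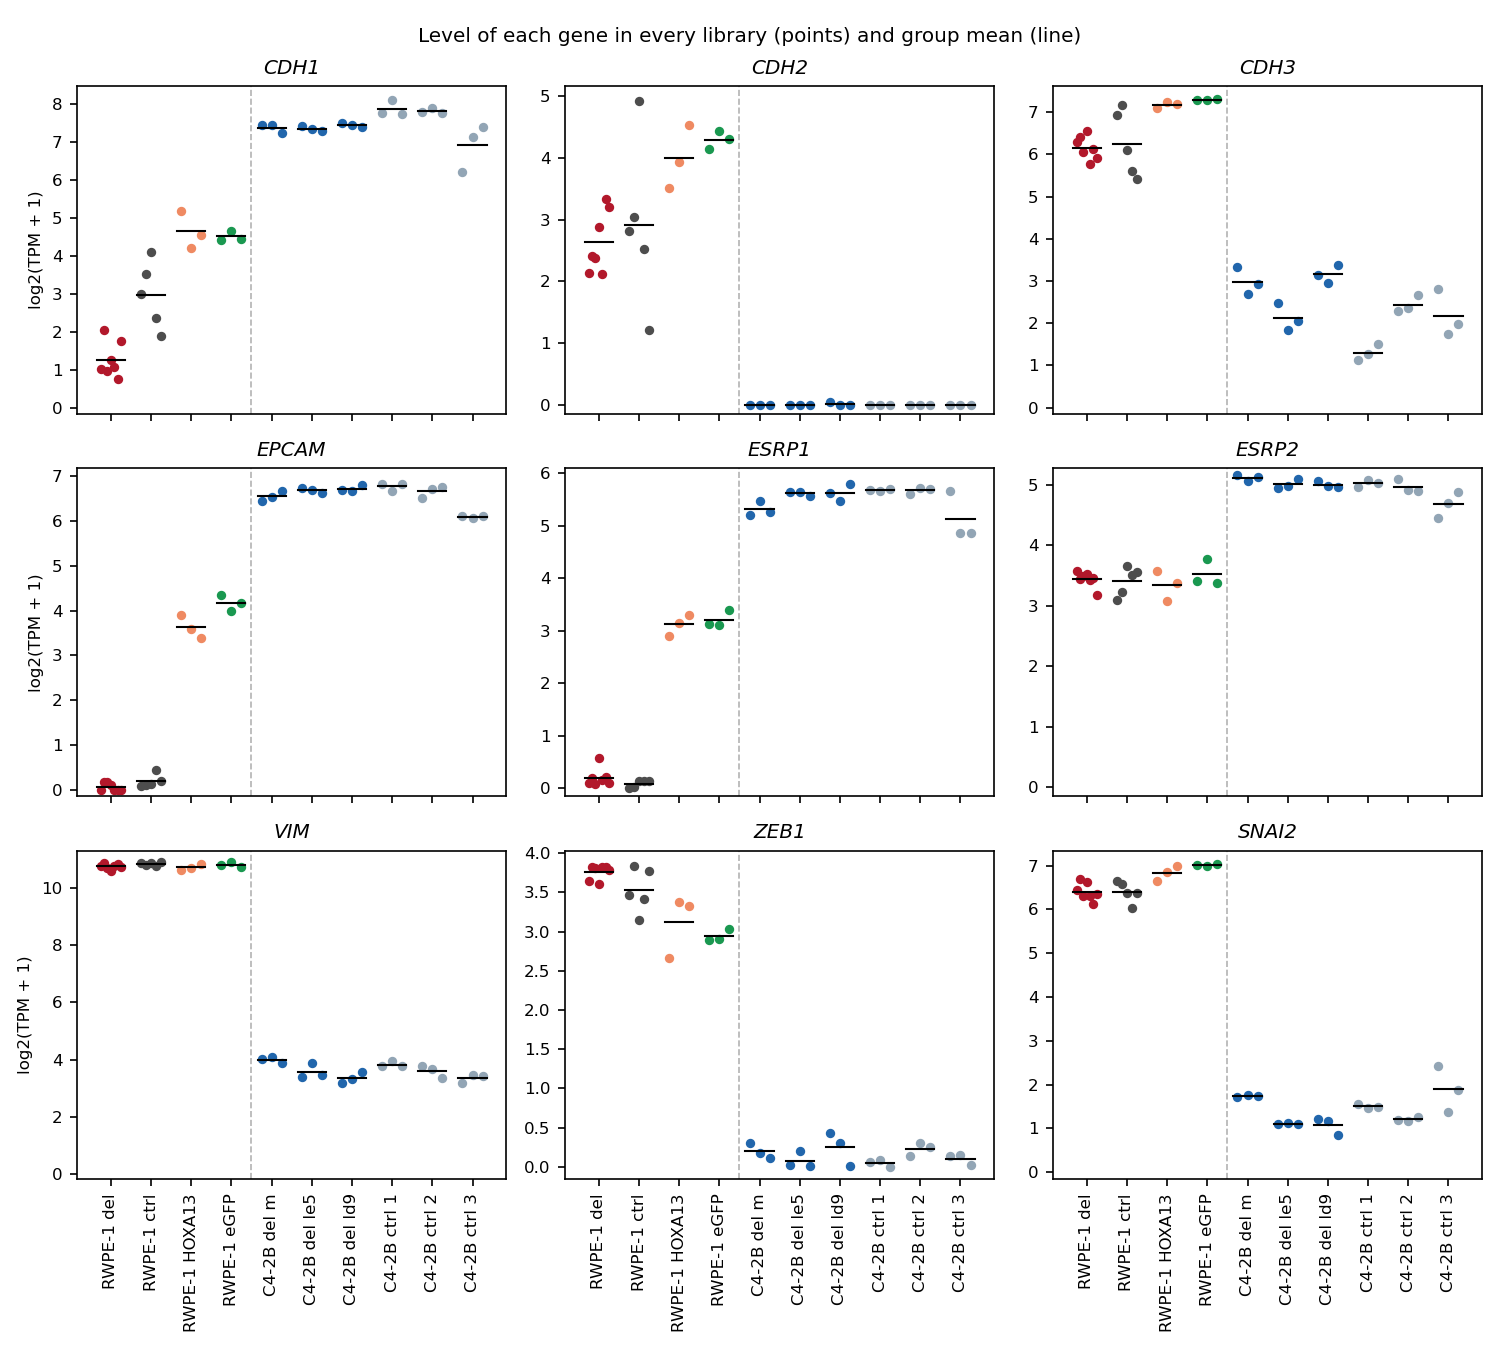
Log2(TPM + 1) of each gene (y axis, a panel per gene) in every library of each group (x axis), with the group mean as a line. A dashed line parts the RWPE-1 table from the C4-2B table. EPCAM and ESRP1 lie near 0 in the first 2 groups, while VIM, ZEB1, CDH2 and SNAI2 lie far lower right of the dashed line.

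The lines were processed into separate tables and grew in different media, RWPE-1 without serum and C4-2B with serum, so their levels are set side by side with no test, and line and culture cannot be told apart. In C4-2B libraries the 4 epithelial genes CDH1, EPCAM, ESRP1 and ESRP2 had their lowest values above the highest RWPE-1 values. The 3 mesenchymal genes together with CDH2 and CDH3 had their highest C4-2B values below the lowest RWPE-1 values. The share of all genes that part the lines without overlap was not counted, so nothing particular to these genes is read from this. RWPE-1 cells carried basal markers together with high VIM. Markers of fibroblasts and smooth muscle were low: their summed level was 8.27 to 38.0 TPM in RWPE-1, and LUM, COL3A1 and MYH11 stayed under 0.5 TPM.

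The deletion comparison asks what the risk region does to expression in RWPE-1 cells. A gene was called at a limma adjusted p under 0.05 over all genes tested, and 10.3% of them were called (1465 of 14188). Of the 9 members 7 reached the level filter, EPCAM and ESRP1 being kept below it, and 1 member, CDH1, was called, on the lower side, where 3.86% of all genes were. CDH1 fell to 1.55 ± 0.896 TPM in deletion libraries, against 8.19 ± 5.46 TPM in control libraries (SD, n = 7 and 5). The log2(TPM + 1) difference was -1.70 ± 0.348 (standard error), at a limma adjusted p of 0.00891. All 7 deletion libraries lay below the control mean, and an exact two-sided permutation test gave p = 0.00505, where 792 arrangements allow 0.00253 at the least. The authors' deposited table gives CDH1 a log2 fold change of -2.00 with an adjusted p of 5.11e-15. The call held under each of 19 alternatives, with adjusted p from 0.0021 to 0.0452, the highest with the replicate number as a block. The summed luminal markers, were at 556 to 847 TPM in deletion libraries and 330 to 701 TPM in controls, and the summed basal markers at 13570 to 18505 TPM in deletion libraries and 11898 to 20485 TPM in controls; their part in the CDH1 value was not tested. In bulk libraries, fewer cells that make CDH1 and less CDH1 RNA per cell cannot be told apart.

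The other 8 members did not pass the test in this comparison. ZEB1 gave 0.23 (95% interval -0.01 to 0.46, limma adjusted p = 0.198) and SNAI2 0.01 (-0.24 to 0.26, adjusted p = 0.966). VIM gave -0.09 (-0.20 to 0.02, adjusted p = 0.288), and CDH3 -0.09 (-0.70 to 0.51, adjusted p = 0.864). CDH2 gave -0.27 (-1.31 to 0.77), and 0.24 without control library 3. No member had groups without overlap, against 6.70% of all genes tested.

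CDH1 sits on chromosome 16 beside CDH3, with no protein-coding gene between them in RefSeq, and ESRP2 lies beyond 7 others. No other gene tested within 10 protein-coding genes of CDH1 was called. Its neighbour TANGO6, a transport gene, gave -0.01 and HAS3, a hyaluronan synthase, gave 0.90 (limma adjusted p = 0.0687). The median log2 fold change over the 616 genes tested on chromosome 16 was 0.03.

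Catenins tie cadherins to actin. Of 9 measured catenins and partners 1 rose and 1 fell. AFDN, an actin-binding junction protein, rose by 0.71 to 31.3 ± 4.27 TPM in deletion libraries, against 18.8 TPM in controls. CTNNA1 (alpha-catenin) fell by 0.49 to 215 ± 10.4 TPM, against 303 TPM in controls, with a limma adjusted p of 0.000641. CTNNA1 is on chromosome 5, where the median over 593 genes tested was -0.39, and what part that has in its value was not tested. The list's median was 0.09, beside 0.05 over all genes.

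Among 9 measured desmosomal genes, PKP2 (plakophilin 2) alone passed, at -0.42. Of 13 measured epithelial identity genes 3 rose and 3 fell. MAL2, a transport protein of polarized epithelia, rose by 2.56, to 17.0 ± 17.5 TPM in deletion libraries, against 1.33 TPM in controls. EHF, an epithelial ETS factor, rose by 1.14 and KLF5, a Krüppel-like factor, by 0.48. LSR, a tricellular junction protein, fell by 1.46 and SPINT2, a protease inhibitor, fell by 0.34. The list's median was -0.34. LSR was at 2.12 ± 1.02 TPM in deletion libraries, against 9.03 TPM in controls.

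No structural mesenchymal gene was called higher. Of 30 measured structural and matrix genes 3 fell, THY1 by 2.29, SPARC by 1.45 and the collagen cross-linking enzyme LOX by 0.76, and none rose. The list's median was -0.22. Of 13 measured other transition factors FOXC1 rose by 0.86 and FOXC2 fell by 1.17. None of 15 TGF-beta genes passed; the most abundant, TGFBR2, gave 0.17 (limma adjusted p = 0.241). SPARC and LOX are on chromosome 5, whose median over 593 genes tested was -0.39, and the part of that in their values was not tested. None of 4 other cadherins passed, and CDH13 gave -0.04 and CDH11 -0.26. The 6 called of 13 epithelial identity genes and the 3 of 30 mesenchymal genes stand beside 10.3% of all genes, and nothing particular to a list is read from them.

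The overexpression comparison asks what HOXA13 itself does in 48 hours. No member was called, and over all 14814 genes 0.0135% were (2 genes), with 2002 (13.5%) at an unadjusted p under 0.05. The authors' deposited table calls 1487 of 12329. CDH3 and EPCAM lay lower in all HOXA13 libraries than in any eGFP library, where 21.1% of all genes had groups without overlap and 8.68% were lower without overlap. EPCAM averaged 11.5 ± 2.27 TPM in HOXA13 libraries and 17.1 ± 2.31 TPM in eGFP libraries (SD, n = 3 each), a log2 difference of -0.54 with an interval of -0.92 to -0.17 (limma adjusted p = 0.274). An exact permutation test gave 0.1, and 20 arrangements cannot give less. The authors' deposited table gives EPCAM -0.37 with an adjusted p of 0.0265, and VIM -0.19 with an adjusted p of 0.041. In the TPM values VIM gave -0.10 (limma adjusted p = 0.556).

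CDH1 averaged 25.2 ± 9.30 TPM in HOXA13 libraries and 22.1 ± 2.21 TPM in eGFP libraries, with a log2 difference of 0.13 (95% interval -0.42 to 0.68, limma adjusted p = 0.834). ZEB1 gave 0.18 (-0.29 to 0.66) and CDH2 -0.30 (-0.87 to 0.26). HOXA13 library 1 was at the edge for several members: highest for CDH1, EPCAM and ESRP2 and lowest for CDH2, CDH3, ESRP1, VIM, ZEB1 and SNAI2 within its group. That library also had the highest summed level of 10 luminal markers in RWPE-1 (1228 TPM, with 856 and 1033 TPM in the other HOXA13 libraries). The part of that library in these values was not tested beyond leaving it out, when still no member was called and the CDH1 difference was -0.14.

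CDH1 thus gave -1.70 with the deletion and 0.13 with the vector, in library sets that share no sample. Tested over the 18 RWPE-1 libraries in one limma fit, the difference of these differences was -1.83 (95% interval -2.99 to -0.67) with an adjusted p of 0.068, which misses the threshold. In that comparison 4.11% of 16117 genes were called and none of the 9 members. With any 1 library left out it was -2.11 to -1.55, and the adjusted p was under the threshold in 1 case, without control library 5, which had the lowest CDH1 among controls (-2.11, limma adjusted p = 0.0247). EPCAM gave 0.42 (0.05 to 0.79), where p was 0.029 unadjusted and 0.188 after limma's adjustment over all genes. The other members had intervals that span 0: ESRP1 0.20, ESRP2 0.20, SNAI2 0.19, CDH2 0.04 (-1.53 to 1.60), CDH3 0.04 (-0.84 to 0.92), ZEB1 0.04 (-0.42 to 0.50) and VIM 0.01 (-0.18 to 0.20). Intervals as wide as those of the cadherins leave sizeable differences possible.

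None of the pathway lists had a gene called by HOXA13 expression. The most abundant members stayed close to eGFP levels: CTNNA1 gave 0.13, JUP (plakoglobin) 0.20, KLF4 0.06, KLF5 0.03, FN1 (fibronectin) -0.17, LGALS1 (galectin 1) 0.08, DSP (desmoplakin) 0.03 and TGFBR2 -0.19. Their limma adjusted p ran from 0.328 upwards. These abundant genes do not stand for their lists. An unadjusted limma p under 0.05 was found for 6 of 21 epithelial identity genes and 3 of 9 desmosomal genes. It was found for 2 of 9 catenins and partners, 2 of 16 TGF-beta genes and 1 of 32 structural and matrix genes. No other cadherin or transition factor had one. Over all genes 13.5% did, and nothing particular to a list is read from these counts.

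**Figure D3:**
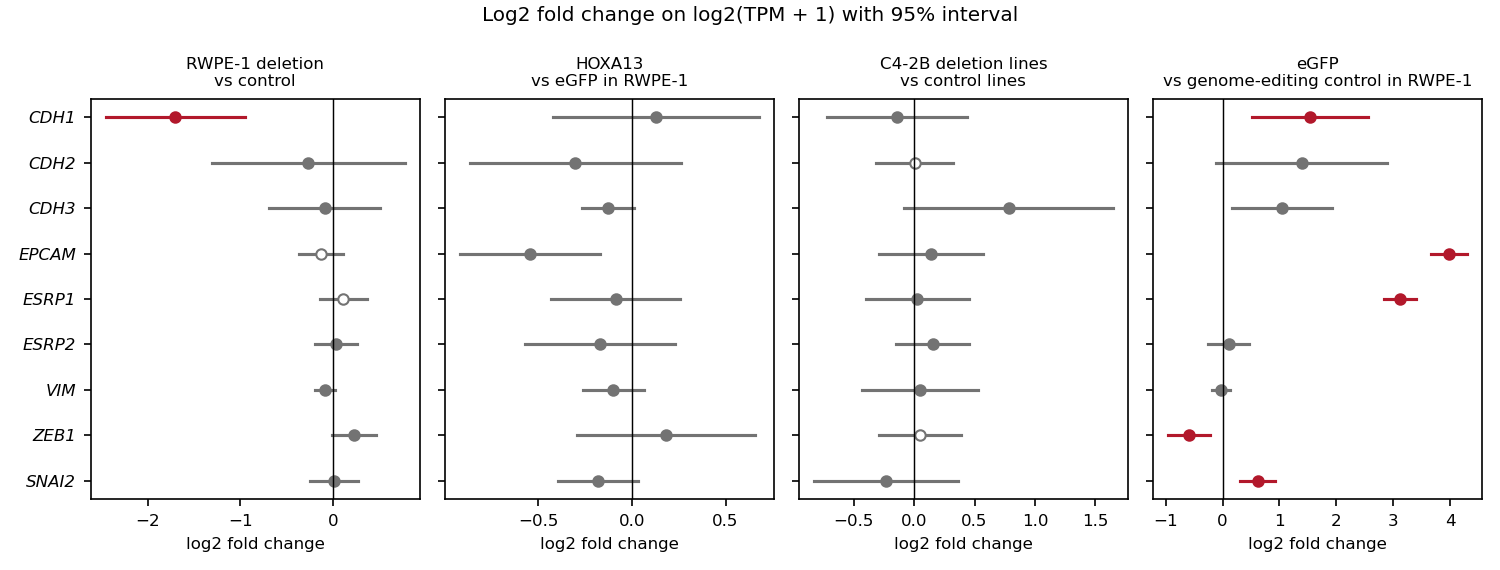
Log2 fold change on log2(TPM + 1) (x axis) of the 9 genes (rows) in 4 comparisons (panels), with 95% intervals. Red marks an adjusted p under 0.05, and open points genes kept below the level filter. CDH1 is the lone red point in the deletion panel, and EPCAM and ESRP1 are the farthest right in the eGFP panel. That comparison was chosen on EPCAM and ESRP1, so there they are a description. Their red colour and intervals in that panel are not read as a test.

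In C4-2B cells the same deletion was compared over lines, since the 3 libraries of a line share 1 clone. None of 14823 genes was called by limma (0%), with 531 (3.58%) at an unadjusted p under 0.05, so no member was. The authors' deposited table calls 1461 of 17075. No member had lines without overlap, beside 9.48% of all genes. CDH3 averaged 6.17 ± 2.41 TPM over deletion lines and 3.25 ± 1.56 TPM over control lines (SD, n = 3 lines each). The line means were 7.06, 3.44 and 8.01 TPM for m, le5 and ld9, and 1.48, 4.47 and 3.79 TPM for control lines 1, 2 and 3. Line le5 lay within the control range. The log2 difference was 0.78 (95% interval -0.08 to 1.65, limma adjusted p = 0.993), and an exact permutation test gave 0.3. The authors' deposited table gives CDH3 0.86 with an adjusted p of 0.0403 over libraries.

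CDH1 averaged 168 ± 6.03 TPM over deletion lines and 196 ± 59.9 TPM over control lines (SD, n = 3 lines each), a log2 difference of -0.14 (-0.72 to 0.44). The deletion lines were alike, at 166, 163 and 175 TPM, and the control lines were not, at 235, 226 and 127 TPM. Control line 3 held the library with the high mitochondrial share, where CDH1 was 73.2 TPM. Without that library the difference was -0.26, and without the whole line -0.45 (limma adjusted p = 0.135). ESRP2 (0.15), EPCAM (0.14), VIM (0.05) and ESRP1 (0.03) had intervals that span 0, as had SNAI2 (-0.23). The other lists had no call either: CTNNA1 gave 0.04, EHF 0.04, SPINT2 -0.02, DSG2 (desmoglein 2) 0.06, CALD1 (caldesmon) 0.19 and ITGB1 (integrin beta 1) -0.06.

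The split of EPCAM and ESRP1 within RWPE-1 led to an added comparison, eGFP libraries against the genome-editing controls, chosen after these values were seen. Both groups carry wild-type 7p15.2, but plasmid transfection, eGFP sorting and the experiment differ together and cannot be told apart. The part in these values of the pseudogenes given below, under 1 TPM in the edited libraries and at least 5 TPM in the transfected ones, was not tested. Here 47.1% of 15066 genes were called, 24.4% higher and 22.7% lower, and 48.6% had groups without overlap, so a call is common. EPCAM and ESRP1 prompted the comparison and passed the level filter through the eGFP libraries only, so their values are given with no test. EPCAM was at 17.1 ± 2.31 TPM in eGFP libraries and 0.146 ± 0.125 TPM in controls (SD, n = 3 and 5), a log2 difference of 3.98. ESRP1 was at 8.30 ± 1.10 TPM in eGFP libraries and 0.068 ± 0.0536 TPM in controls, a difference of 3.12. The groups did not overlap for either gene. These eGFP and control libraries are also those of the comparisons above.

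Of the other 7 members 2 were called higher and 1 lower. CDH1 was at 22.1 ± 2.21 TPM in eGFP libraries and 8.19 ± 5.46 TPM in controls (1.54, limma adjusted p = 0.0206). Without any 1 of the 3 eGFP libraries its adjusted p was 0.0558 to 0.0721. SNAI2, a repressor, was also higher, at 128 ± 2.30 TPM in eGFP libraries and 84.3 ± 13.8 TPM in controls (0.61, adjusted p = 0.00531). ZEB1 was lower, at 6.69 ± 0.405 TPM in eGFP libraries and 10.7 ± 2.24 TPM in controls (-0.59, adjusted p = 0.016), and missed the threshold without eGFP library 1 or 2 (0.0602 and 0.057). CDH3 (1.04, adjusted p = 0.0537) and CDH2 (1.39, adjusted p = 0.115) did not pass, though CDH2 did without control library 3 (1.89, adjusted p = 0.00593) and CDH3 without control library 1 or 2. ESRP2 (0.10) and VIM (-0.03) did not pass, and VIM's interval was -0.19 to 0.12.

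A pattern was drawn from the values of EPCAM and ESRP1 after these were seen, so their own fit to it was given in advance. Of 18252 genes that reached 1 TPM, 41 (0.225%) were under 1 TPM in all 12 libraries of the editing experiment and at least 5 TPM in all 6 transfected libraries. The reverse held for 2 genes. Beside EPCAM and ESRP1, the 41 include RAB25, ST14 and AP1M2 of the epithelial list, SNAI1 (Snail) and MMP9. They also include the interferon genes IFNB1, IFNL1, IFNL2 and IFNL3 and a number of processed pseudogenes, such as SNRPGP2, at 1700 TPM on average in transfected libraries and listed at 0 in all 12 others, which were named after their values were seen. Such pseudogenes share sequence with their parent genes, so their values are uncertain.

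The genes of epithelial identity fall into kinds by how they passed the level filter. Of 21 measured, 11 would have passed in each group alone, and of these 8 were called higher in eGFP libraries and 1 lower, beside 22.8% and 23.0% of the 12850 genes that passed so. Another 8 passed through the eGFP libraries only, which favours a higher value there (85.3% of all such genes were called higher), and EHF and GRHL3 passed through the controls only. Nothing particular to the list is read from these counts. Among the 8 that passed through the eGFP libraries only, RAB25, a recycling GTPase of epithelia, was at 16.0 ± 1.35 TPM in eGFP libraries and 0.03 TPM in controls (4.04). ST14 (matriptase), a surface protease, was at 11.4 ± 0.300 TPM in eGFP libraries and 0.174 TPM in controls (3.40), and AP1M2, the epithelial clathrin adaptor subunit, at 12.4 ± 1.57 TPM in eGFP libraries and 0.134 TPM in controls (3.57). MARVELD3, a tight junction protein, gave 2.44. Among the 11, MAL2 gave 3.74 and KLF4, a barrier factor, 2.67.

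**Figure D4:**
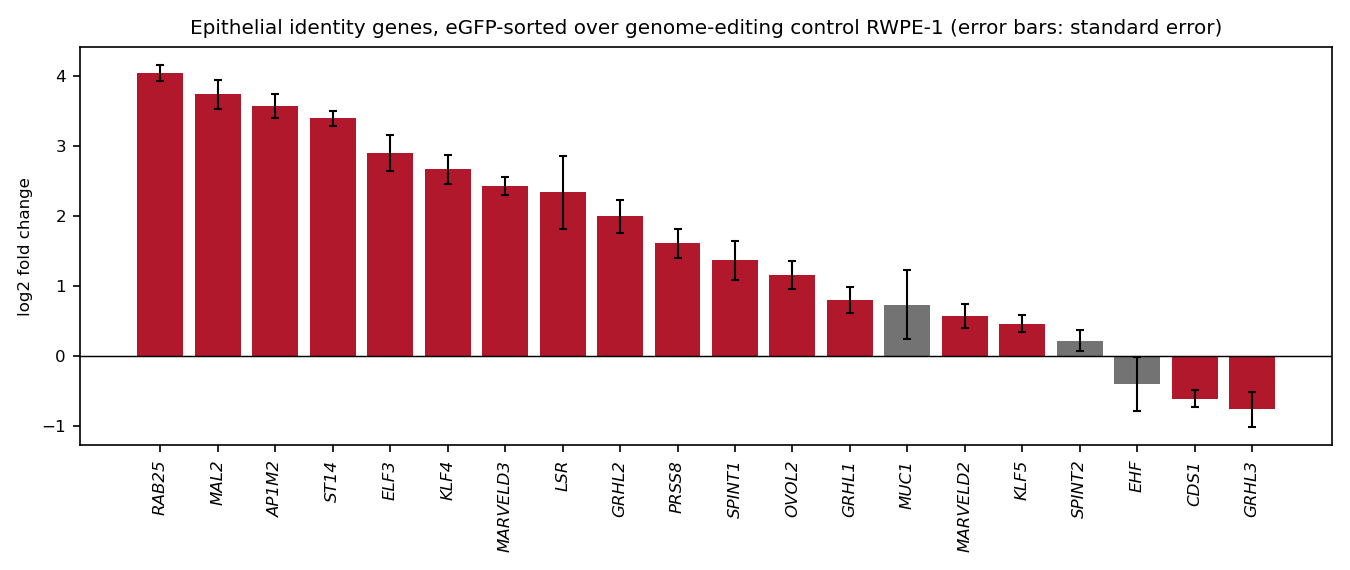
Log2 difference on log2(TPM + 1) (y axis) of 20 epithelial identity genes (x axis) between eGFP libraries and genome-editing controls of RWPE-1, with standard errors. Red bars have an adjusted p under 0.05, of which 15 point up and 2, CDS1 and GRHL3, point down. Of those that point up 8 passed the level filter through the eGFP libraries only, and GRHL3 passed through the controls only.

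Of 30 structural and matrix genes that passed in each group alone 11 were called higher in eGFP libraries and 5 lower, beside 22.8% and 23.0% of such genes. MMP9, a matrix protease, was at 13.9 ± 0.858 TPM in eGFP libraries and 0.03 TPM in controls (3.86), having passed through the eGFP libraries only. FN1, a matrix protein often used as a mesenchymal marker, was at 2226 ± 17.3 TPM in eGFP libraries and 245 TPM in controls (3.21). TGFBI gave 1.56, ITGA5, a fibronectin receptor subunit, 1.32 and ACTA2 1.16. Among 13 transition factors that passed in each group alone FOXC1 (1.78), FOSL1 (0.90) and SOX9 (0.86) were called higher, and TEAD1 (-0.59) and YAP1 (-0.27) lower. SNAI1, which passed through the eGFP libraries only, gave 2.53. Nothing particular to these lists or to the junction and TGF-beta lists is read from their counts, where 47.1% of all genes were called.

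Of 9 desmosomal genes PKP3 was higher (0.81) and 5 were lower, PKP2 (-1.29), PERP (-1.20), DSC3 (-1.17), DSP (-0.75) and DSG2 (-0.61). Of 9 catenins and partners ARVCF (0.95), AFDN (0.61) and JUP (0.53) were higher, and PKP4 (-0.74), CTNNB1 (beta-catenin, -0.66) and VCL (vinculin, -0.51) were lower. Of 14 TGF-beta genes that passed in each group alone 4 were higher and 5 lower, among them TGIF1 (0.76) and TGFB1 (0.51) above, and TGFBR1 (-0.80) and SMAD2 (-0.62) below. BAMBI, a decoy receptor, gave 1.03 and CDH8 1.12, both having passed through the eGFP libraries only. Of 4 other cadherins CDH13 was lower (-0.86).

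Marker sums were set side by side for this split as well. The sum of the 8 basal markers was 11890 to 12585 TPM in eGFP libraries and 11898 to 20485 TPM in controls, with overlap. Its genes went both ways, 3 called higher (LAMB3 2.79, ITGB4 1.00, KRT17 0.82) and 3 lower (KRT15 -3.29, KRT5 -1.55, ITGA6 -0.66). The sum of 10 luminal markers was 873 to 962 TPM in eGFP libraries and 330 to 701 TPM in controls, with KLK3, KLK2 and TMPRSS2 under 0.5 TPM in both. KRT8, a simple-epithelium keratin that holds most of that sum, was called higher (1.08, limma adjusted p = 0.0284), while FOXA1 (1.35) and SLC45A3 (0.96) had passed through the eGFP libraries only. The sum of 11 fibroblast and smooth muscle markers was 31.7 to 36.4 TPM in eGFP libraries and 8.41 to 14.2 TPM in controls, and the sum of 6 immune markers was 138 to 161 TPM in eGFP libraries and 11.5 to 60.9 TPM in controls. PTPRC, CD3E, LYZ and MS4A1, defining immune genes, stayed under 0.5 TPM in both. CD68, a lysosomal protein abundant in macrophages, held most of the immune sum, at 148 ± 12.4 TPM in eGFP libraries and 29.0 ± 16.4 TPM in controls (2.52, limma adjusted p = 0.00198). Their part in the results was not tested.

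Genes whose levels ran with a member within groups were sought over libraries as Pearson r of deviations from the group means, which share depth and scaling and are given as a description. Over the 18 RWPE-1 libraries CDH1 ran closest with PRKAG2 (r = 0.84), CLIC1 (0.82) and RHOC (0.81), among 14273 genes. CDH3 ran closest with SEPTIN5 (0.90), GSDME (0.90) and PCBP4 (0.89). VIM ran with FADS1 (0.91), SF3A1 (0.87) and LPIN1 (0.84), and ZEB1 with MBTPS1 (0.86), C2orf49 (0.85) and ZFP37 (0.85). Between members, CDH3 and SNAI2 had 0.69 and CDH1 and CDH2 0.63, while CDH1 and ZEB1 had -0.43. Among the controls, library 3 was highest and library 5 lowest for both CDH1 and CDH2, and r without these libraries was not computed.

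Over the 18 C4-2B libraries, with deviations from the means of deletion and control libraries, CDH1 ran closest with PLOD1 (0.98), TBC1D16 (0.98) and NUDCD2 (0.98). CDH3 ran with CDK14 (0.85), MIPOL1 (0.83) and ZNF782 (0.79), and VIM with CARD10 (0.88), VPS37B (0.87) and TERT (0.83). CDH1 had 0.85 with ESRP2 and 0.70 with EPCAM, and EPCAM had 0.75 with ESRP1. The 3 libraries of a line share a clone and the means are of whole arms, so these values of r carry the gaps between lines, among them control line 3, where CDH1 averaged 127 TPM, against 226 and 235 TPM in control lines 2 and 1.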

How the data were processed

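RNA was sequenced from 36 libraries with a stranded kit, per the labels. Trimmomatic 0.35, RSEM 1.3.0, STAR 2.5.2b, FastQC, DESeq2 and featureCounts 1.5.1 with build GRCh37 are named in the submitters' processing notes; which tool made each table is not stated, nor whether reads were counted by strand. The authors deposited TPM for 18 RWPE-1 and 18 C4-2B libraries in separate tables. The authors' deposited comparison tables hold a log2 fold change, its standard error and a test statistic (a score), a mean normalized count (a signal) and raw and adjusted p-values, per the file headers. Whether their log2 values are shrunken is not stated. For overexpression they give HOXA13 2.08, though it averaged 748 TPM in HOXA13 libraries and 2.67 TPM in eGFP libraries. Deposited log2 values and the limma differences are thus not on one scale. TPM holds no counts, so the depth of each library is unknown. The deposited Hi-C count matrix was not used.

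TPM was tested with limma 3.58.1 (R 4.3.3, trended eBayes, two-sided) on log2(TPM + 1), which makes fold changes of low genes smaller. Genes with a TPM of at least 1 in as many libraries (C4-2B: lines, averaged first) as the smaller group were tested, and the 9 members were kept whatever their level. Benjamini-Hochberg adjustment ran over all genes tested. Exact permutation tests were two-sided (scipy 1.17.1). The procedure was tested on simulated data in which each library was drawn independently. Libraries of a C4-2B line shared no line effect there, so the simulation does not show what the test over lines could detect. Members and gene lists were chosen with earlier results of these data known; of 182 list symbols 180 matched. List genes were named if called, at most the 6 with the smallest p per list and comparison, or otherwise the 2 most abundant; CDH1's neighbours, and CDS1 and GRHL3 in a caption, were named after their values were seen. Alternatives were pseudocounts of 0.1 and 0.5, no filter, median-ratio and quantile scaling, each library left out, replicate blocks and a fit of all 18 RWPE-1 libraries. The comparison of eGFP with genome-editing controls, the difference of differences and the split of genes by the group through which they passed the filter were added after the data were seen. So was the search for genes with the pattern of EPCAM and ESRP1. A few genes of the lists are not reported here by name, though the counts, sums and medians of their lists include them; 1 of them is left out of the plot of epithelial identity genes.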

Additional observations from a re-analysis of the deposited data

Results flagged for a closer look

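Within the RWPE-1 groups of 4 to 10 libraries, 18 sets of values were searched for a library far from the others, and 3 were found. The nominal chance rate of about 1 in 20 was not checked for these TPM values, so no excess is read from the count. CDH2 was at 29.32 TPM in control library 3 and at 1.33 to 7.29 TPM in the other controls. ESRP1 was at 0.5 TPM in deletion library 4 and at 0.06 to 0.16 TPM in the other deletion libraries. ESRP2 was at 8.03 TPM in deletion library 7 and at 9.75 to 10.95 TPM in the other deletion libraries.

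EPCAM differed in opposite directions with the deletion in the 2 lines. In RWPE-1 all 7 deletion libraries lay below the control mean, with a mean log2 difference of -0.13. In C4-2B all 3 deletion lines lay above the control mean, with 0.14. Without control line 3, whose EPCAM mean was the lowest of the 6 lines at 67.8 TPM, the C4-2B difference was -0.07, so its direction rests on that line. Exact permutation tests gave 0.0732 in RWPE-1 and 0.8 in C4-2B. The difference between the lines was not tested, and the RWPE-1 values are all at or under 0.36 TPM.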

How the results depend on the processing

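The log2 fold changes of the 9 members kept their side of the threshold in all 171 values of the RWPE-1 deletion, 117 of overexpression and 117 of C4-2B, and in 116 of 126 of the eGFP comparison. The number of members called stayed at 1 in the deletion comparison, and at 0 in overexpression and C4-2B. In the eGFP comparison it was 3 to 6 with a library left out, with EPCAM and ESRP1 counted, and in the difference of differences 0 to 1. Uncalled members did change sign, among them CDH2 in the deletion (-0.69 to 0.24). Genes called in the deletion comparison numbered 450 with the replicate block, where deletion libraries 6 and 7 have no partner, and 1070 to 1997 with a library left out. Their split was 547 lower of 1465, 725 of 1297 with median-ratio scaling and 656 of 1346 with quantile scaling. In overexpression the count was 1 with no filter, 1 with the replicate block, 131 in the fit of 18 libraries and 1 to 5 with a library left out. In C4-2B it was 6 with no filter, 8 over libraries with the replicate block and 0 to 7 with a line or library left out. The cause was not tested. Same-numbered libraries did not pair: their deviations had correlations of -0.176 to 0.142 in the deletion and -0.0166 to 0.00587 in overexpression. No paired analysis was possible for the eGFP comparison because its groups share only numbers across experiments. Without counts, values of EPCAM and ESRP1 under 1 TPM have no known precision.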
